A study of Mus musculus with 4 samples.

Results

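The broad Ring1B domains were the Ring1B peaks of 800 bp or more that had no overlapping peak in the input library. They were chosen by the length of the region in the Ring1B library and by the absence of an input peak, as listed by the authors. They numbered 586 of the 10119 Ring1B peaks. Of 798 peaks of that length, the other 212 overlapped an input peak and were left out. The domains were compared with the 7895 shorter Ring1B peaks that also had no input peak. The peaks came from ChIP-seq of mouse embryonic stem (mES) cells of the E14 line, which is of 129/Ola origin. The cells were grown in 2i medium plus LIF, which contained 1 µM PD0325901, a MEK inhibitor, 3 µM CHIR99021, a GSK3 inhibitor, and 1000 U/ml LIF. All 4 libraries came from these cells fixed with 1% formaldehyde for 10 min, and there was 1 library each for Ring1B, Dzip3, ubiquitylated H2A (ubH2A) and input. There were no replicates and no knockdown among these libraries, so no difference here has a replicate error or a test, and 1 cell line limits the comparison. Intervals are 95% Wilson intervals for shares and exact 95% Poisson intervals for read counts, and they cover counting error only.

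Ring1B is the catalytic E3 ligase of Polycomb repressive complex 1 (PRC1) and places ubiquitin on lysine 119 of histone H2A. In mES cells PRC1 is known to sit on CpG islands of silent developmental genes, and at some of them it spreads over the gene. Dzip3 is another E3 ligase described for the same lysine.

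Sequence is shown for domains that stand for the patterns described later, as 120 bases near the middle of each domain. Coordinates are mm9, the strand is plus, and CG dinucleotides are in capitals. Skor1, Olig2 and Lhx5 lie in sequence found once in the genome and carried 8, 10 and 9 CG in the window. The domains nearest Slc25a33, Tmem125, Gm11735 and Olfr161 had high Dzip3 read densities, and their sequence repeats a short unit.
Skor1, chr9:62993104-62993223: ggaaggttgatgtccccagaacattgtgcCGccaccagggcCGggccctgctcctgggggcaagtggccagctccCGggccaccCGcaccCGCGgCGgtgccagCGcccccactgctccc
Olig2, chr16:91226677-91226796: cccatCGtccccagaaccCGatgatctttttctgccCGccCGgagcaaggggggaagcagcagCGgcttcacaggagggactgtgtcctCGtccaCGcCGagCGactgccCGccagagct
Lhx5, chr5:120882306-120882425: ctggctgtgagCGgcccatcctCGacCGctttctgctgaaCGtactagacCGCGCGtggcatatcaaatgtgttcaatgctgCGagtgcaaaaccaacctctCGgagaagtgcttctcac
near Slc25a33, chr4:149184537-149184656: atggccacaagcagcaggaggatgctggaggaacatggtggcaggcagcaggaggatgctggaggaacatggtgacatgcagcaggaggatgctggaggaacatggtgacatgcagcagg
near Tmem125, chr4:118220561-118220680: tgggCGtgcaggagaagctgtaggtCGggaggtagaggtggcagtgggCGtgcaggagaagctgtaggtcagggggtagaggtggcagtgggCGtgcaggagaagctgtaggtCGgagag
near Gm11735, chr11:116607361-116607480: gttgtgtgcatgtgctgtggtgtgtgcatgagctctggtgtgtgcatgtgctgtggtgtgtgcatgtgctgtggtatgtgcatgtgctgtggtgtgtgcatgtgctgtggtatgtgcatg
near Olfr161, chr16:3239763-3239882: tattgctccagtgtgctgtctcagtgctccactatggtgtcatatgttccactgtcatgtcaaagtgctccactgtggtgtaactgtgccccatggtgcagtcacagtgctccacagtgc

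Length and Ring1B enrichment chose the domains, so they are given as a description. The domains ran from 801 to 4388 bp with a median of 1134 bp and together covered 766 kb. Their median Ring1B read density was 451 reads per kb, with quartiles at 385 and 549. The deposited scaled fold change of Ring1B over input ran from 6.36 to 442 with a median of 49.5. They lay on all autosomes, with 65 on chromosome 2, 56 on chromosome 6 and 54 each on chromosomes 5 and 8, and 1 lay on X. The shortest domains were at Fgf15 (801 bp), Zmiz1 (802 bp) and 57.6 kb from Atg7 (802 bp). The longest peaks that missed the limit were at Egr3 (1 bp below the limit), Osr2 (798 bp) and 4.23 kb from Tbx2 (798 bp). Their Ring1B densities were 355, 395 and 440 reads per kb inside the limit and 362, 362 and 515 outside it.

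The longest domain was 4388 bp long, and its middle base lay in a coding exon of Tchh, which encodes the hair follicle protein trichohyalin. This domain held 2741 Ring1B, 226 Dzip3, 283 ubH2A and 52 input reads. The domain of Skor1, a transcriptional corepressor gene, was 4287 bp long and held 2624 Ring1B, 191 Dzip3, 200 ubH2A and 44 input reads. At Olig2, a bHLH gene of the oligodendrocyte and motor neuron lineages, a domain of 3208 bp held 2040 Ring1B, 93 Dzip3, 171 ubH2A and 20 input reads. In each of these domains Ring1B reads outnumbered those of every other library, which the choice of Ring1B peaks without an input peak favours. The other domains among the 10 longest were at Gm996 (3183 bp), Six2 (3127 bp), Isl2 (3079 bp), C530008M17Rik (3053 bp), Gm1337 (2919 bp) and, with 3822 and 3093 bp, in the array of 5S rRNA genes on chromosome 8. Six2 maintains kidney progenitors and Isl2 is a LIM homeobox gene of motor neurons. A transcription start site (TSS) is here the start of any annotated transcript of a gene, so it can lie inside the gene. A TSS lay inside the domain at Skor1, Olig2, Isl2, C530008M17Rik and Gm1337. The domain of Six2 began 148 bp and that of Gm996 97 bp from one. The domains of Skor1 and Isl2 did not contain the gene start, which lay 3.6 and 4.5 kb upstream of their middle.

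The domains lay on and downstream of transcription start sites. A TSS of a protein-coding gene (GENCODE vM1) was inside 211 of 586 domains (36.0%, 32.2 to 40.0), against 536 of 7895 shorter peaks (6.79%, 6.25 to 7.37) and 8.81% of all Ring1B peaks without an input peak. A TSS was inside or within 4 kb of 453 domains (77.3%, 73.7 to 80.5) and of 3034 shorter peaks (38.4%, 37.4 to 39.5), and of 41.1% of all those peaks. Outside repeated sequence, as defined below, the share within 4 kb was 88.0% of domains and 53.8% of shorter peaks. It was 76.1% in such peaks from 600 bp to under 800 bp. The share with a TSS inside was 41.2%, 9.80% and 21.3% in the same order. A longer region is more likely to hold a TSS by its length alone, so the distance from the middle of the region was also counted. The middle lay within 1 kb of a TSS in 290 domains (49.5%, 45.5 to 53.5) and in 1823 shorter peaks (23.1%, 22.2 to 24.0). The share with a TSS inside was 5.44% in peaks of 200 bp to under 400 bp, 12.4% from 400 bp to under 600 bp, 18.4% from 600 bp to under 800 bp and 36.0% at 800 bp or more.

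Around the TSS the domains reached farther downstream than upstream. Of 211 domains with a TSS inside, 170 reached farther downstream than upstream, and the median reach was 335 bp upstream and 887 bp downstream. Of the domains that lay beside the TSS within 4 kb, 197 were downstream of it and 45 upstream. The position covered most often was 500 bp downstream of the TSS, where 263 of 453 domains (58.1%) lay, while 41 of them (9.05%) covered the position 1000 bp upstream and 196 (43.3%) the one 1000 bp downstream. The shorter peaks were most often at 100 bp downstream, which 21.7% of them covered. They leaned downstream too, with 3.69% at 1000 bp upstream and 6.79% at 1000 bp downstream. By their middle base, 219 domains were in a coding exon, 160 in an intron, 73 in a non-coding exon or UTR and 134 between genes. A further 33 domains without a protein-coding TSS held the TSS of another annotated gene.

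**Figure D1:**
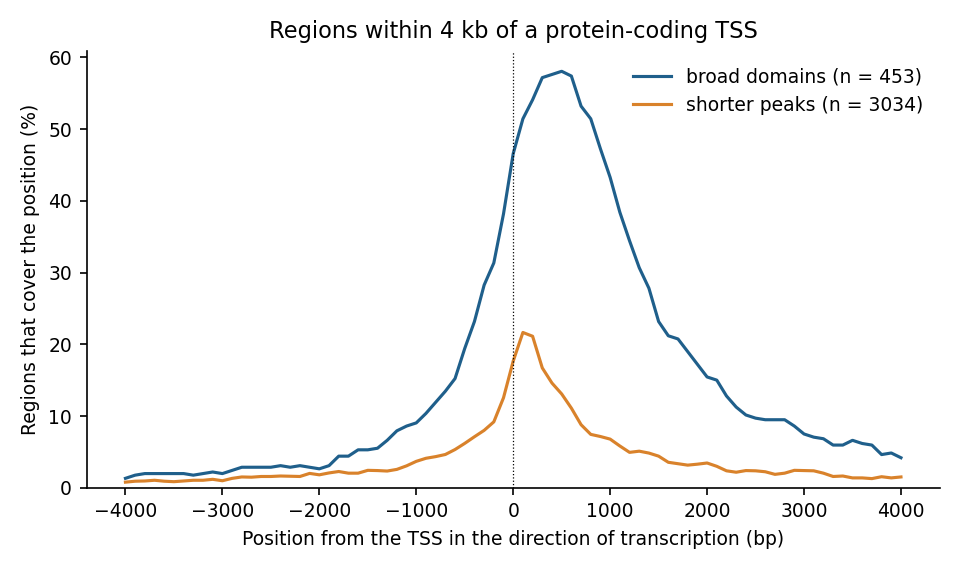
Share of regions within 4 kb of a protein-coding TSS (y axis, %) that cover each position from the TSS in the direction of transcription (x axis, bp), for 453 broad domains (blue) and 3034 shorter Ring1B peaks (orange). The broad domains peak at 58.1% at 500 bp downstream and the shorter peaks at 21.7% at 100 bp downstream.

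Several domains often lay at 1 gene. With domains joined across gaps of 10 kb or less, 253 domains (43.2%, 39.2 to 47.2) fell into 91 groups and 333 stood alone. Some gaps were short, with a smallest gap of 17 bp in the Hoxa group, 15 bp at Six3 and 36 bp at Isl2. Whether peak calling split 1 stretch into several domains was not tested. With peaks 500 bp or less apart merged first, 33.2% of domains were in groups. The share of shorter peaks in such groups is not given here. There were 65 groups of 2, 12 of 3 and 10 of 4 domains, and groups of 5, 6, 7 and 29 occurred once each. A protein-coding TSS lay in the span of 64 groups. The group of 29 was the 5S rRNA array. The group of 7 covered 7.76 kb of a 34.6 kb stretch of the Hoxa cluster, whose genes set position along the body axis, with TSSs of Hoxa3, Hoxa7, Hoxa9, Hoxa10 and Hoxa11 in its span. The domains of this cluster held 306 to 842 Ring1B, 16 to 74 Dzip3, 37 to 62 ubH2A and 2 to 16 input reads each, and 18 shorter Ring1B peaks lay between them.

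The group of 6 lay at Six3, a homeobox gene of the forebrain and eye, within 15.5 kb. Its domains held 441, 257, 541, 995, 419 and 450 Ring1B reads in the order of the chromosome, against 42, 17, 73, 39, 16 and 28 Dzip3 reads and 47, 17, 71, 38, 47 and 18 ubH2A reads. Ring1B reads were most numerous in the domain of 1666 bp, and Dzip3 and ubH2A reads in the domain of 1524 bp. These counts are not scaled to length, and the domains differed in length, so they do not rank read density. The group of 5 lay at Lmx1b, a LIM homeobox gene of the limb and of serotonergic neurons, and its domains held 256 to 870 Ring1B, 30 to 42 Dzip3 and 22 to 70 ubH2A reads. Their Dzip3 counts had overlapping intervals, from 20.2 to 42.8 reads for the lowest and from 30.3 to 56.8 reads for the highest. These counts are not scaled to length, which ran from 813 to 1788 bp. The longest of these domains had 19.0 Dzip3 reads per kb, against a median of 29.1 in the group. The next group, of 4 domains, lay at Tbx1, a T-box gene of the pharyngeal arches, and covered 6.55 kb of 10.7 kb.

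Counted over gene models with 4 kb on each side, 443 protein-coding genes held a domain, 93 held at least 2 and 26 at least 3. A domain was counted for every gene that it touched in this way, so neighbouring genes can share domains. Nr2e1 and Ostm1 shared the same 3, and Hoxb5 and Hoxb6 the same 2. The largest counts, 33 for Gm20388 and 6 for Fgfr2, came with gene models that span 4435 and 3009 kb in this annotation. Lmx1b and Six3 held 5 domains each, and Tbx1, Lhx5, Pitx1, Hmx1 and Lhx1 held 4. Shorter Ring1B peaks lay among or beside the domains of these genes, as in the map of regions by gene, and some domains followed each other with no shorter peak between them.

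A domain lay within 4 kb of a TSS of 384 of 22238 protein-coding genes, which is 1.73%, and any Ring1B peak without an input peak lay there for 9.7%. Gene families were counted by symbol against this background. Neighbouring genes of a family can share a domain, as Zic1 and Zic4 share 1, so the genes are not independent counts. Of 383 genes in the families without ribosomal proteins, 110 had a domain (28.7%, 24.4 to 33.4), 88 had shorter peaks only and 185 had neither. These genes lay beside 157 of the domains, all of them in single-copy sequence as defined below. Of all 453 domains within 4 kb of a protein-coding TSS, 440 were in such sequence, so this is close to the general share.

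Among transcription factors, domains were found at 7 of 9 Pax genes, 8 of 12 Lhx genes, 4 of 6 Irx genes, 3 of 5 Pitx and Otx genes, 11 of 19 proneural bHLH genes and 8 of 14 Nkx genes. These families pattern the nervous system, the eye and the foregut. Domains were at 3 of 6 Dlx genes, 3 of 6 Gata genes, 7 of 18 Sox genes, 14 of 39 Hox genes, 14 of 43 Fox genes, 4 of 16 T-box genes and 2 of 11 Zic and Gli genes. A further 18 Hox genes had shorter peaks only. Hes and Hey genes, the effectors of Notch, had none of 9 (upper limit 29.9%), although 4 had shorter peaks.

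The following genes were among the 2 of their own family with the highest Ring1B read density near the TSS, and other families had genes with higher values. At Pax2, of the kidney and midbrain, 1 domain over a TSS held 1012 Ring1B, 73 Dzip3, 96 ubH2A and 11 input reads in 1370 bp. At Pax9, of the pharynx and teeth, a domain of 1783 bp held 1288, 58, 73 and 24 reads in the same order. At Lhx1, of the kidney and head organizer, a domain of 1067 bp held 801, 68, 52 and 10 reads. In each of these domains the Dzip3 and ubH2A reads were far fewer than the Ring1B reads and more than the input reads. The choice of Ring1B peaks without an input peak, and of genes by Ring1B density, favours this order. The counts are not scaled to library size. At Nkx2-1, of the thyroid and lung, a domain of 2417 bp held 1656, 84, 103 and 18 reads. At Foxb2 a domain of 2812 bp held 2162, 105, 137 and 16 reads. At Neurod2, a neuronal bHLH gene, a domain of 2394 bp held 1888, 144, 110 and 6 reads. At Gata6, of the primitive endoderm, a domain of 1820 bp held 1075, 82, 69 and 6 reads.

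Genes of signalling pathways were counted by role. Among ligands, domains were at 4 of 19 Wnt genes (21.1%, 8.51 to 43.3), 3 of 22 Fgf genes, 3 of 21 Bmp and Gdf genes and 2 of 3 hedgehog genes. At Wnt1, of the midbrain boundary, a domain of 2478 bp held 1448 Ring1B, 147 Dzip3, 194 ubH2A and 21 input reads. At Ihh, of cartilage growth, a domain of 2521 bp held 1087, 96, 149 and 18 reads. Receptors had domains at 2 of 10 Fzd genes and 1 of 22 Eph and ephrin genes, Ephb1. Secreted inhibitors had them at 2 of 14 genes, the Bmp antagonists Grem1 and Nog. Cdk inhibitors had none of 7.

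Of 29 genes of Polycomb complexes, 2 had a domain. Ring1B itself was counted with the Polycomb complexes. None of the other 7 H2A ligases and deubiquitylases of the study, the 11 naive pluripotency factors and the 72 ribosomal protein genes had one, and for ribosomal proteins the upper limit was 5.07%. Of the genes the study assayed by other means, Neurog1, a proneural bHLH gene, had 1 domain. It spanned chr13:56352531-56353712, contained the TSS, and held 713 Ring1B, 68 Dzip3 (52.8 to 86.2), 42 ubH2A (30.3 to 56.8) and 6 input reads. Shank3, T and Eomes had shorter peaks only within 4 kb, and Neurod1, Cdh2, Bspry, Rhox6, Stra8 and Acta1 had none there.

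**Figure D2:**
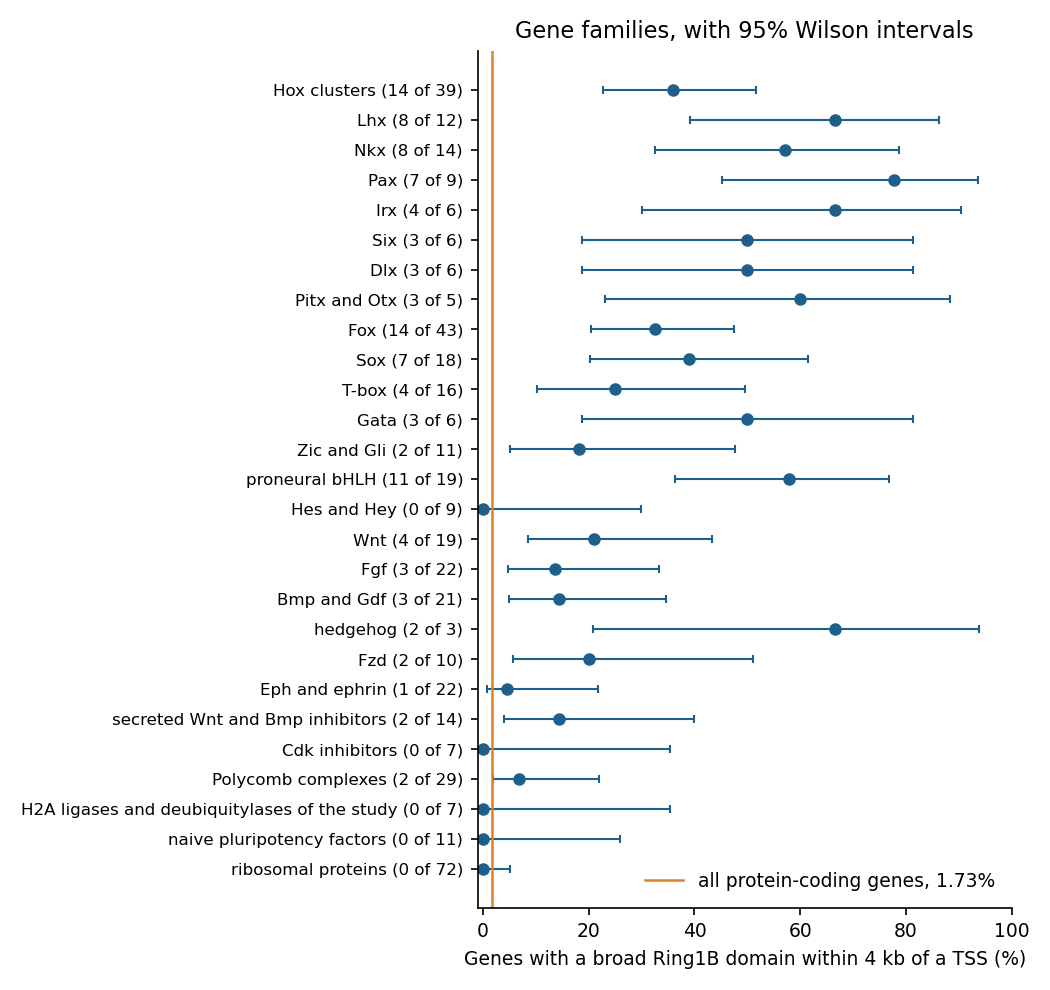
Share of genes in each family with a broad Ring1B domain within 4 kb of a TSS (x axis, %), with 95% Wilson intervals that cover counting error only, and the share over all protein-coding genes as an orange line at 1.73%. Pax, Lhx and Irx genes reach 77.8%, 66.7% and 66.7%, and ribosomal protein genes are at 0.

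By sequence the domains fell into distinct classes. For each region the share of its 31-base words that occur more than once in the genome was counted. In 500 domains at most 50% of words were repeated, of which 489 were below 10%, and in 86 domains more than 50% were repeated, of which 60 were over 90%. The repeated share was thus 14.7% of domains (12.04 to 17.77), against 34.5% of all Ring1B peaks without an input peak. Single-copy domains held 7.39 CpG per 100 bases as their median and repeated ones 3.58. Single-copy domains had a median distance to a TSS of 200.5 bp and 440 of them (88.0%, 84.9 to 90.6) were within 4 kb, against 13 of 86 repeated ones (15.1%, 9.05 to 24.2).

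Peaks of the other libraries followed these classes. A Dzip3 peak overlapped 77 of 586 domains (13.1%, 10.6 to 16.1), against 22.1% of all Ring1B peaks without an input peak. A ubH2A peak overlapped 73 (12.5%, 10.0 to 15.4), against 21.4%, and 60 domains had both. Among single-copy domains 9 of 500 had a Dzip3 peak (1.8%, 0.9498 to 3.39) and 10 a ubH2A peak (2.0%, 1.09 to 3.64). Among repeated domains 68 of 86 had a Dzip3 peak (79.1%, 69.3 to 86.3) and 63 a ubH2A peak (73.3%, 63.1 to 81.5). Shorter peaks were split the same way, with Dzip3 peaks at 7.48% of 5053 single-copy ones and 49.96% of 2842 repeated ones. The part that read placement in repeated sequence has in these peaks was not tested.

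Of the 9 single-copy domains with a Dzip3 peak, those of Lhx5, Mafa, Gad2 and Gm1979 lay within 4 kb of a TSS. The others lay 4154 bp from Nkpd1, 13323 bp from Tmem170, 83.4 kb from Scaf8, 130 kb from Hhip and 352 kb from Olfr161. At Lhx5, a LIM homeobox gene of the forebrain, the peak covered 27.96% of a domain with 550 Ring1B, 91 Dzip3, 46 ubH2A and 7 input reads. At Mafa, a beta cell transcription factor gene, it covered 24.1% of a domain with 641, 130, 69 and 2 reads. At Gad2, which makes GABA, it covered 21.4% of a domain with 458, 93, 46 and 6 reads. In these domains Dzip3 reads exceeded ubH2A reads and there was no ubH2A peak. Of all 9 domains, which were selected on their Dzip3 peak, 5 had a ubH2A peak. Raw ubH2A counts exceeded Dzip3 counts at Gm1979 (537 against 402), Scaf8 (450 against 259) and Hhip (379 against 328). These counts are not scaled to library size, and the ubH2A library was the larger (67.0 against 53.3 M reads). A small excess of ubH2A reads, as at Hhip, therefore does not rank the 2 libraries. The domain nearest Olfr161 held more Dzip3 than Ring1B reads, 741 against 534, and 645 ubH2A and 69 input reads. Its sequence had 0.306 CpG per 100 bases, and 66.8% of its bases equalled the base 21 positions on.

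Read density showed the same classes. In single-copy domains the median was 48.3 Dzip3 reads per kb (lowest 3.95, highest 567), 52.8 ubH2A reads per kb (15.7 to 493) and 7.09 input reads per kb. In repeated domains it was 188 Dzip3 (36.1 to 1290), 189 ubH2A (48.5 to 1218) and 18.4 input reads per kb. Ring1B density was 450 and 500 reads per kb in these classes. Spread evenly over the 2556 Mb of assembled sequence, the libraries would give 20.3 Ring1B, 20.8 Dzip3, 26.2 ubH2A and 18.9 input reads per kb. The single-copy medians were 22.2, 2.32, 2.01 and 0.375 times these levels. Input was thus low in these domains, and the rule required the absence of an input peak.

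**Figure D3:**
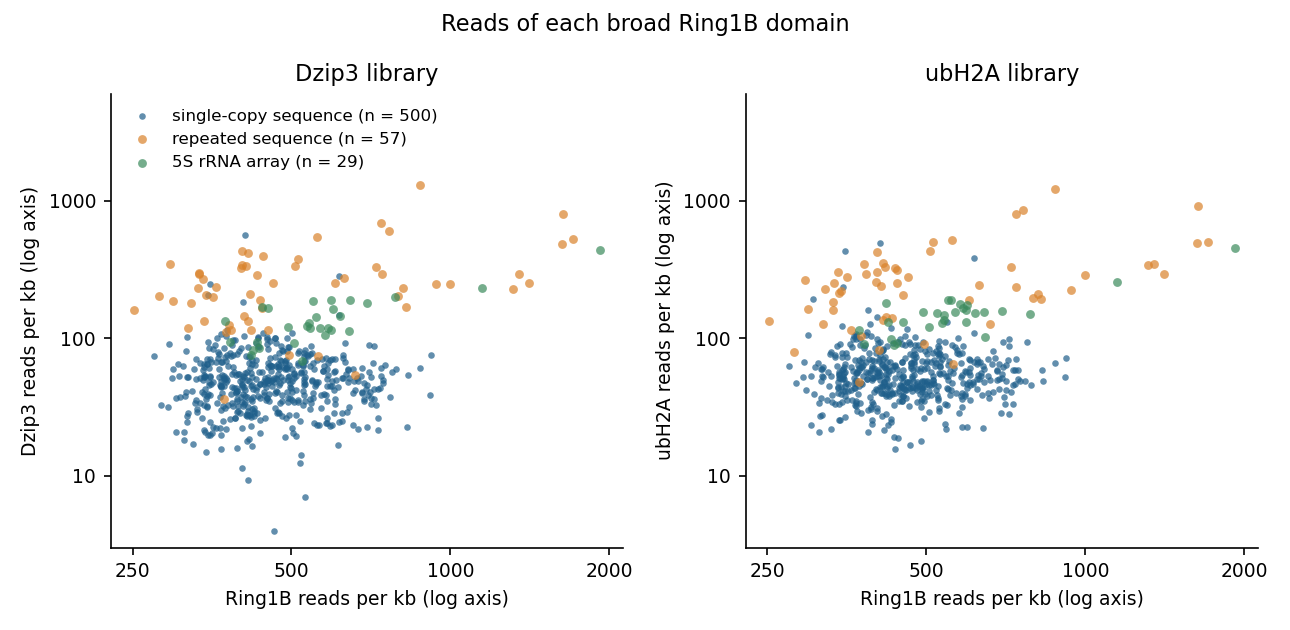
Dzip3 (left) and ubH2A (right) reads per kb (y axes, log) against Ring1B reads per kb (x axes, log) for each of the 586 domains, coloured by sequence class. The 500 single-copy domains (blue) centre on 48.3 Dzip3 and 52.8 ubH2A reads per kb, and most repeated domains (orange, and green for the 5S rRNA array) lie above them.

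Across the single-copy domains neither readout followed Ring1B density. All of them were chosen as long Ring1B peaks, which limits the range of Ring1B density, so this does not cover other regions. Spearman's rho was 0.03 between Dzip3 and Ring1B reads per kb and 0.02 between ubH2A and Ring1B, over 500 domains that share the same libraries. Between Dzip3 and ubH2A it was 0.31. In the 86 repeated domains Dzip3 and ubH2A had a rho of 0.75, and their rho with input reads per kb was 0.55 and 0.71. Their rho with Ring1B reads per kb was 0.23 and 0.31.

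Median Dzip3, ubH2A and input reads per kb were all higher in shorter peaks, so these libraries were compared by their ratio to input. The part that reads at the edges of a region have in this was not tested. In single-copy sequence the summed Dzip3 reads, divided by library size, were 5.81 times input in peaks of 200 bp to under 400 bp, 6.05 times from 400 bp, 6.56 times from 600 bp and 5.72 times in the domains. For ubH2A these ratios were 5.16, 5.24, 5.33 and 5.09. For Ring1B, which chose the regions, they were 17.9, 31.3, 39.2 and 55.7. The Dzip3 and ubH2A ratios to input thus stayed within 5.72 to 6.56 and 5.09 to 5.33 while that of Ring1B was higher in each longer class. Level ratios do not mean level read density. From the shortest class to the domains, median Dzip3 density fell from 80.2 to 48.3 reads per kb. Median ubH2A density fell from 92.5 to 52.8, and input density fell as well. The rule left out regions with an input peak, and median input in single-copy domains was 0.375 times its even level. The part that this choice has in the ratios was not tested. In repeated sequence the domains had ratios of 8.99 for Dzip3, 7.60 for ubH2A and 24.7 for Ring1B.

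**Figure D4:**
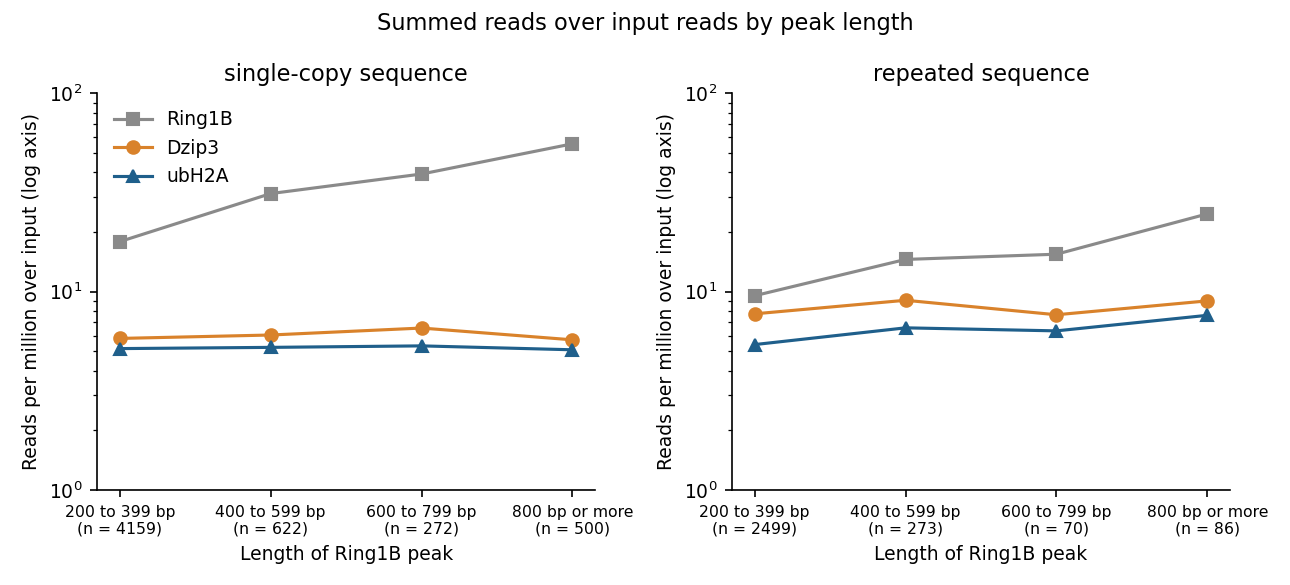
Summed reads over input reads, each divided by its library size (y axes, log), for Ring1B, Dzip3 and ubH2A in 4 length classes of Ring1B peaks without an input peak (x axes), in single-copy sequence (left) and repeated sequence (right). On the left the Dzip3 and ubH2A lines stay level, at 5.72 and 5.09 in the domains, and the Ring1B line rises to 55.7.

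The largest set of repeated domains was the 5S rRNA array, whose genes encode the small RNA of the large ribosomal subunit. Within chr8:126061783-126148540, 29 domains covered 42.2 kb of 86.8 kb, and 54 shorter Ring1B peaks without an input peak and 3 peaks with one lay among them. The annotation places 51 rRNA genes in this span, 41 of them named n-R5s, with a median spacing of 1697.5 bp. Domains touched 23 of these genes and contained 15 whole. At least 92.6% of the words of each domain were repeated, and their median copy number in the genome assembly was 49. The domains held 24877 Ring1B, 5846 Dzip3, 6445 ubH2A and 616 input reads in sum, so that Dzip3 was 8.604 and ubH2A 7.54 times input at equal library size. Dzip3 peaks overlapped 20 of the 29 and ubH2A peaks 19. Which copy of the unit each read came from cannot be told apart.

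The 5 domains with the most Dzip3 reads per kb were nearest Slc25a33, Tmem125, Gm11735, Hrh4 and Olfr161, and those with the most ubH2A reads per kb were those nearest Slc25a33, Tmem125, Hrh4, Gm11735 and Cbln4. The domain 35.7 kb from Slc25a33 held 846 Ring1B, 1244 Dzip3 (1176 to 1315), 1174 ubH2A (1108 to 1243) and 46 input reads in 964 bp. The domain 3.11 kb from Tmem125 held 2836 Ring1B, 1393 Dzip3, 1577 ubH2A and 96 input reads in 1732 bp. The domain at Gm11735, in an intron, held 964 Ring1B, 889 Dzip3, 1034 ubH2A and 87 input reads. The one near Cbln4 held 483 Ring1B, 471 Dzip3, 447 ubH2A and 40 input reads. In the sequences printed for the Slc25a33, Tmem125 and Gm11735 domains the short unit recurs, and over the whole domains 84.0%, 82.9% and 76.9% of bases equalled the base 34, 44 and 18 positions on. In 8 domains, raw Dzip3 or ubH2A counts exceeded the Ring1B count, and in these 66.8% to 84.7% of bases matched at such a shift. These counts are not scaled to library size, which was 51.8 M reads for Ring1B, 53.3 for Dzip3 and 67.0 for ubH2A. How many domains would keep this order at equal library size is not given here. Of all domains, 28 repeated and 4 single-copy ones reached 60% at a shift of 2 to 400 bases.

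Domains far from genes were few. More than 100 kb from any protein-coding TSS lay 13 domains (2.22%, 1.30 to 3.76), against 14.9% of shorter peaks. In single-copy sequence 99.0% of domains and 92.7% of shorter peaks lay within 100 kb of one. The longest of them were nearest Hrh4 (2582 bp), Hhip (1602 bp), Tead1 (1411 bp), Olfr161 (1307 bp) and Gm17379 (1103 bp). The domain nearest Hrh4 held 1972 Ring1B, 1563 Dzip3, 2189 ubH2A and 81 input reads. The domain nearest Tead1 differed from the other 4, with 9.43 CpG per 100 bases, no repeated word, no Dzip3 or ubH2A peak, and 706 Ring1B, 154 Dzip3, 108 ubH2A and 15 input reads. The others had 0.232 to 0.997 CpG per 100 bases and overlapped peaks of both libraries.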

How the data were processed

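The deposited lists hold the peaks of each library. The authors aligned reads to mm9 with the Illumina pipeline, allowing 1 mismatch, and called peaks per library with Partek Genomics Suite at FDR 0.1. The methods describe MNase fragmentation and the labels a Picoruptor. From the deposited Ring1B list, read counts of all 4 libraries, the percent of each region covered by other libraries' peaks, and the scaled fold change over input were used. Library sizes, from the deposited peak heights and RPM values, were 51.8 M reads for Ring1B, 53.3 for Dzip3, 67.0 for ubH2A and 48.3 for input. The methods describe uniquely mapped reads, but these sizes exceed the number given there and many reads lie in repeated sequence, so how repeated reads were placed is not known. In the ubH2A and input lists 1 broken row each was left out.

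Regions were placed on GENCODE vM1 and the mm9 genome with Python 3.11.15, numpy 2.4.6 and pandas 2.3.3, and the scripts were tested on simulated regions. The gene of a domain is the protein-coding gene with a TSS inside it or nearest to it. The domains, families and lists were chosen with earlier results of these data known. Genes were named by rule: the 10 longest domains, the 5 with the most Dzip3 or ubH2A reads per kb, the 5 largest groups and genes with most domains, at most 2 genes per family, the domains next to the length limit, the 5 longest far from a TSS, and genes the study assayed. The 9 single-copy domains with a Dzip3 peak were named after their values were seen. Alternatives were other lengths, gaps, distances and overlaps. Some genes and a sequence that the rules select are not reported here.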

Additional observations from a re-analysis of the deposited data

How the results depend on the processing

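No paired analysis was possible because each target has a single library. With 15 alternatives and 15 results, 70 values moved by less than their counting interval or by less than 1.5 times for counts, and 53 moved further.

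A limit of 600 bp gave 928 domains, with a TSS inside 29.5%, 72.7% within 4 kb, medians of 418 Ring1B and 54.3 Dzip3 reads per kb, 162 groups with 51.9% of domains, and 179 genes with at least 2. A limit of 1000 bp gave 382 domains, 41.4%, 81.4%, 478 Ring1B, 49.3 Dzip3 and 53.7 ubH2A reads per kb, 56 groups with 38.2% of domains, and 54 such genes. Keeping peaks with an input peak gave a TSS inside 28.6%, 63.0% within 4 kb, Dzip3 peaks at 36.0% and ubH2A peaks at 35.5%, medians of 486 Ring1B, 65.9 Dzip3, 70.2 ubH2A and 10.7 input reads per kb, 55.0% in groups and 5.91 CpG per 100 bases. Merging peaks 500 bp or less apart gave 933 domains, a TSS inside 42.1%, ubH2A peaks at 15.9%, medians of 333 Ring1B, 47.7 Dzip3 and 52.9 ubH2A reads per kb, 639 genes with a domain within 4 kb, 33.2% in groups and 6.62 CpG per 100 bases.

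Asking for 50% of the domain to be covered left Dzip3 peaks at 6.66% and ubH2A peaks at 6.48%. With TSSs of all genes, 41.6% held one and 85.0% were within 4 kb. With the TSS inside, 196 genes, 63 of them in the families, had a domain. Alternatives added after seeing the data left out the chromosome 8 group, with 81.3% within 4 kb, Dzip3 peaks at 10.2% and ubH2A peaks at 9.69%, or all repeated sequence, with a TSS inside 41.2%, 88.0% within 4 kb, Dzip3 peaks at 1.8%, ubH2A peaks at 2.0%, medians of 48.3 Dzip3, 52.8 ubH2A and 7.09 input reads per kb and 7.39 CpG per 100 bases. Beyond what the fewer or more regions show, the cause was not tested.

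With 1 library per target, no difference has a replicate error. Input reads were few in single-copy domains, and 10 domains had none. Reads outside the listed peaks were not analysed here.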
